A study of Mus musculus with 4 samples.

Results

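The proteasome is the protease complex that degrades proteins tagged with ubiquitin, and its genes were examined in muscle stem cells (MuSCs) of mouse plantaris muscle with and without overload. The genes were taken as every protein-coding row of the UMI count table whose symbol is Psm followed by a letter from a to g and a number, which gave 48 of the 19353 rows. Of these, 47 encode proteasome subunits, activators, an inhibitor or assembly chaperones. The remaining row, Psmc3ip, matches the pattern by name alone and encodes a partner of homologous recombination. Relative to the other transcripts, 28 of the 42 genes that could be tested were higher in MuSCs of overloaded muscle, 3 were lower and 11 did not pass the test, with a median difference of 1.68-fold. Of all 7228 genes tested, 25.8% were higher and 26.3% lower. These calls are by edgeR. With DESeq2, the tool of the study, 14 of 45 were higher and 0 lower, against 967 higher and 1215 lower of 10348 genes. Of the 42, 10 entered the test through the overloaded libraries alone and 1 through the sham libraries alone.

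All libraries came from mice of the genotype Pax7-CreERT2:Rosa-YFP, in which a tamoxifen-activated Cre recombinase driven by Pax7 switches on yellow fluorescent protein (YFP), so that YFP marks cells that expressed Pax7 at labelling together with their progeny. The mice received tamoxifen, and the plantaris was overloaded by cutting the distal tendons of gastrocnemius and soleus (tenotomy) or was sham-operated by skin incision alone. By the study, these cells were taken a few days after tenotomy, and later times were not profiled. Sorting for YFP filled each tube with 100 cells. There were 2 libraries from sham muscle and 2 from overloaded muscle, made by CEL-Seq2, which reads the polyadenylated ends of transcripts and tags every molecule with a unique molecular identifier (UMI), so that copies made by amplification are counted once. Animal ages are not given in the sources used here, nor is it stated whether libraries of 1 group came from different mice, so p-values measure the spread between these tubes, which may be technical.

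Depth was 269683 and 260488 UMIs in sham and 387955 and 483528 in overloaded libraries, and a count of 3 corresponded to between 6.08 and 13.6 normalized CPM, the unit in which counts are scaled to a common total. All 9 MuSC markers checked were counted in every library, and Pax7 itself gave 118 and 107 UMIs in sham and 108 and 137 in overloaded libraries. The 8 markers of myocytes and the 8 of cycling cells were all called higher after overload (25.8% of all genes were), but 5 of the former and all 8 of the latter were tested through the overloaded libraries alone, as too few UMIs were counted in sham, and their calls are no support for a rise. Myog, which drives myoblast differentiation, went from 52 and 49 to 246 and 282 UMIs, and Top2a, a topoisomerase of dividing cells, from 2 and 6 to 124 and 176. Leukocyte markers, 14 genes in all, summed to 3 and 6 UMIs in sham and 87 and 215 in overloaded libraries, with Lyz2 the most abundant (0, 0, 17 and 38) and 10 of the 14 at 0 in both sham libraries. In such pooled cells, a change in the number of cells of one type and a change in RNA per cell cannot be told apart.

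The 26S proteasome consists of a barrel, the 20S core, and a cap, the 19S regulatory particle. In the core, alpha rings form the gate and beta rings carry the active sites of Psmb5, Psmb6 and Psmb7. In cells of the immune system, or under interferon, these are replaced by the immunoproteasome subunits Psmb8, Psmb9 and Psmb10. The 19S base holds a ring of ATPases that unfolds the substrate, and the lid holds the deubiquitinase that removes the ubiquitin chain. In skeletal muscle the ubiquitin-proteasome system is best known for the turnover of myofibrillar proteins.

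Proteasome genes lie apart from each other in the genome, here on 16 chromosomes, and are classically described as transcribed together through promoter elements. Promoter windows from RefSeq (assembly GRCm38.p6, 250 bases before to 50 bases after the start) were matched to 41 of the 48 genes, with 44 windows in all, and 8 short motifs were searched on both strands. Of the 44 windows, 15 (34.1%), belonging to 14 genes, held ACTTCCG, a core bound by ETS-family factors, against 6.42% of all 32851 windows. CCAAT was in 15 windows (34.1%), against 37.4% of all, and TGACNNNGC, the core of the antioxidant response element, in 6 (13.6%), against 12.4% of all. GAAANNGAA, found in interferon-stimulated response elements, was in 7 windows (15.9%, against 8.56%). The remaining motifs were each in 2 or 3 windows. They were TTCNNNGAA (6.82%, against 8.30%), GAANNTTC (6.82%, against 7.86%), GCATGCGC (6.82%, against 2.71%) and AAGATGGCG (4.55%, against 1.40%). Among the 25 windows of genes that were higher after overload, 9 held ACTTCCG (36.0%), 10 held CCAAT (40.0%) and 1 held TGACNNNGC (4.0%). These matches describe letters in the windows, not binding.

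The 250 bases before the start are shown for 5 genes that the results turn on, 5′ to 3′ on the strand of the gene, with motif matches in capitals. Psmd14 (chr2:61711444-61711693, plus strand) and Psmc1 (chr12:100109952-100110201, plus strand) rose after overload and hold CCAAT with ACTTCCG in this stretch. On the other strand CCAAT is seen as ATTGG. Psmb5 (chr14:54617996-54618245, minus strand) was called higher and holds TGACGTCGC, a match to TGACNNNGC, and GAACATTC, a match to GAANNTTC. Psmd10 (chrX:140956712-140956961, minus strand) had the highest ratio, resting on 1 and 0 UMIs in sham with an interval of 4.58 to 1073, and holds CCAAT in 3 places. Psma3 (chr12:70974373-70974622, plus strand) was lower and holds CCAAT in 1.
Psmd14: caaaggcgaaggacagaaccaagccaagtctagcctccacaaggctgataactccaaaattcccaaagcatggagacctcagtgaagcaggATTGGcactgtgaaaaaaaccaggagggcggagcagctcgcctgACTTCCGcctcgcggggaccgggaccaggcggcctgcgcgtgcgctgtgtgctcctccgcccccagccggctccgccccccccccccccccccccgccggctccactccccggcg
Psmc1: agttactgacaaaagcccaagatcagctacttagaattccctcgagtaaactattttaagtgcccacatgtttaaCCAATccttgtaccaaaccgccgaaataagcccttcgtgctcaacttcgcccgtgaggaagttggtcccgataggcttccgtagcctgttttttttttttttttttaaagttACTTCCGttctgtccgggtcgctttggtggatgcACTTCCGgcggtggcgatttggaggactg
Psmb5: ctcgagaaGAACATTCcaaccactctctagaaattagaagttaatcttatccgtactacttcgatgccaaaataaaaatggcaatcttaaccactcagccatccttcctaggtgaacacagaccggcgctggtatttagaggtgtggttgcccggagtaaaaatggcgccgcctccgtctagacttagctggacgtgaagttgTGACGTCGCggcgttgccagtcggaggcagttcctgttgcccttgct
Psmd10: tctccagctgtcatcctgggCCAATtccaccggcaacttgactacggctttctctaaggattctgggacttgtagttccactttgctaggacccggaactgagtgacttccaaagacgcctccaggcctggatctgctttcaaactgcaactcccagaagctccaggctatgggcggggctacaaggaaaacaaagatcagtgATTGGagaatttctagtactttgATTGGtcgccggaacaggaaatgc
Psma3: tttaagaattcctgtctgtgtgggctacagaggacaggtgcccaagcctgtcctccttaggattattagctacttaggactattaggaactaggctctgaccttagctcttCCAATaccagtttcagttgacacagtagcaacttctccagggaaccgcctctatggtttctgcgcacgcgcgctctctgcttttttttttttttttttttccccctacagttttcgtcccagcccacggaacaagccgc
Psmc1 and Psma3 both carry the CCAAT letters, and Psmd10 holds no ACTTCCG in this window. Whether any of these letters relate to the changes was not tested.

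Whether proteasome transcripts differed between overloaded and sham MuSCs was first read from their summed UMIs. The 47 proteasome genes gave 1158 and 1111 UMIs in the sham libraries, 0.429% (95% Wilson interval 0.405 to 0.455) and 0.427% (0.402 to 0.452) of all UMIs. In the overloaded libraries they gave 2831 and 3633 UMIs, 0.730% (0.703 to 0.757) and 0.751% (0.727 to 0.776). The libraries of a group lay within each other's intervals, which cover counting error only, and the groups did not overlap. The constitutive 20S genes rose from 0.148% and 0.161% to 0.289% and 0.273% of the library, and the 19S base and lid genes from 0.222% and 0.197% to 0.342% and 0.350%. Their ratio, 19S over constitutive 20S UMIs, was 1.50 and 1.22 in sham and 1.18 and 1.28 in overloaded libraries, so that sham replicate 1 stood highest and the groups overlapped. The ratio of alpha to constitutive beta subunits also overlapped, with 1.12 and 0.976 in sham and 1.03 and 1.01 in overloaded libraries. As genes can differ in how well they are captured, these ratios compare libraries only.

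**Figure D1:**
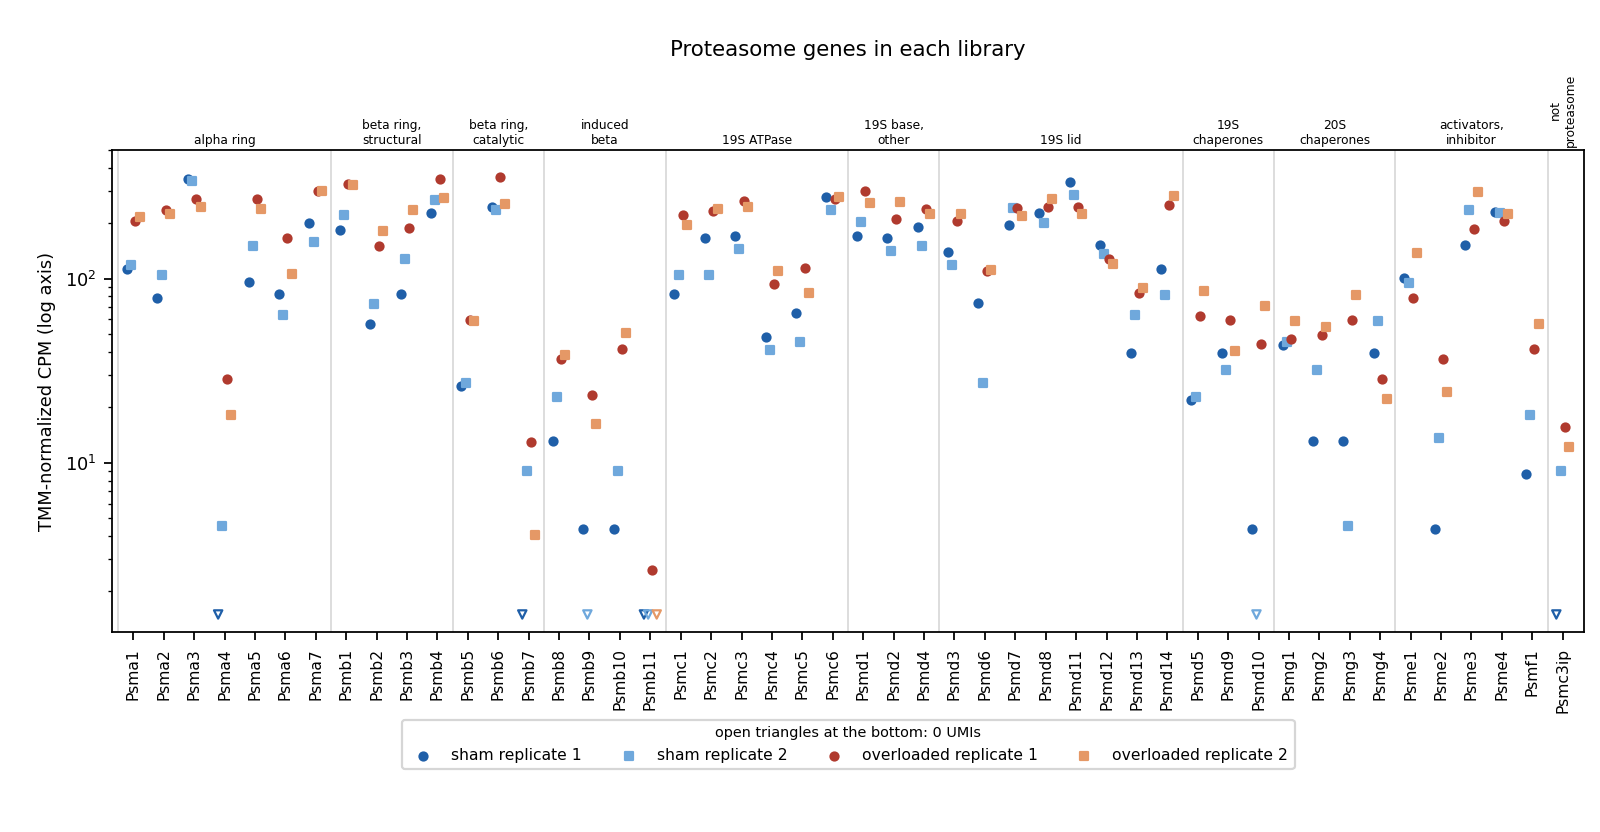
TMM-normalized CPM (vertical log axis) of each of the 48 genes in the 4 libraries, grouped by role, with circles and squares for replicates 1 and 2, blue for sham and red or orange for overloaded; open triangles at the bottom mark 0 UMIs. Most genes show both overloaded libraries above both sham libraries, and Psma3, Psmd11, Psmd12, Psme4 and Psmg4 show the reverse.

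For single genes, counts were scaled by the TMM method of edgeR and fitted with its quasi-likelihood model, and p-values were adjusted after Benjamini and Hochberg over 7228 genes with a threshold of 0.1. Over the whole table, 1868 genes (25.8%) were called higher in overloaded MuSCs and 1898 (26.3%) lower. Against this background, 28 of 42 proteasome genes (66.7%) were called higher and 3 lower. The median log2 fold change was 0.75 over the proteasome genes and 0.05 over all genes. In normalized CPM, both overloaded libraries were above both sham libraries for 33 of the 42 (37.5% of all genes) and below them for 5 (35.4% of all genes). In UMIs per tube of 100 cells, 41 of the 42 were above, Psmg4 being the exception, but this also held for 72.7% of all genes, since the overloaded tubes yielded more UMIs.

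Of the 42 genes, 10 passed the filter on low counts through the overloaded libraries and not through both sham libraries, so that their place in the test already favours a rise and their p-values are no support for one. They were Psmb5, Psmb8, Psmb10, Psmd5, Psmd6, Psmd9, Psmd10, Psmf1, Psmg2 and Psmg3. Psmg4 passed through the sham libraries alone, where it is high, and the same holds for its fall. Among genes above the filter in both sham libraries, 13.6% of 5187 were called higher and 36.5% lower, with a median log2 fold change of -0.27. The 32 proteasome genes among them had 19 called higher, 3 called lower and a median of 0.65. Fold changes also depended on abundance in these libraries, since the median of all genes went from 0.53 in the lowest of 10 equal classes of abundance to -0.74 in the highest. The 18 proteasome genes in class 9 (195 to 302 CPM) had a median of 0.38, with 9 higher and 2 lower, where all genes had a median of -0.28, with 20.2% higher and 44.5% lower. All 5 in class 8 (144 to 195 CPM) were higher, with a median of 1.03. All genes of that class had a median of -0.09, with 25.3% higher and 32.4% lower. No proteasome gene was in the highest class.

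**Figure D2:**
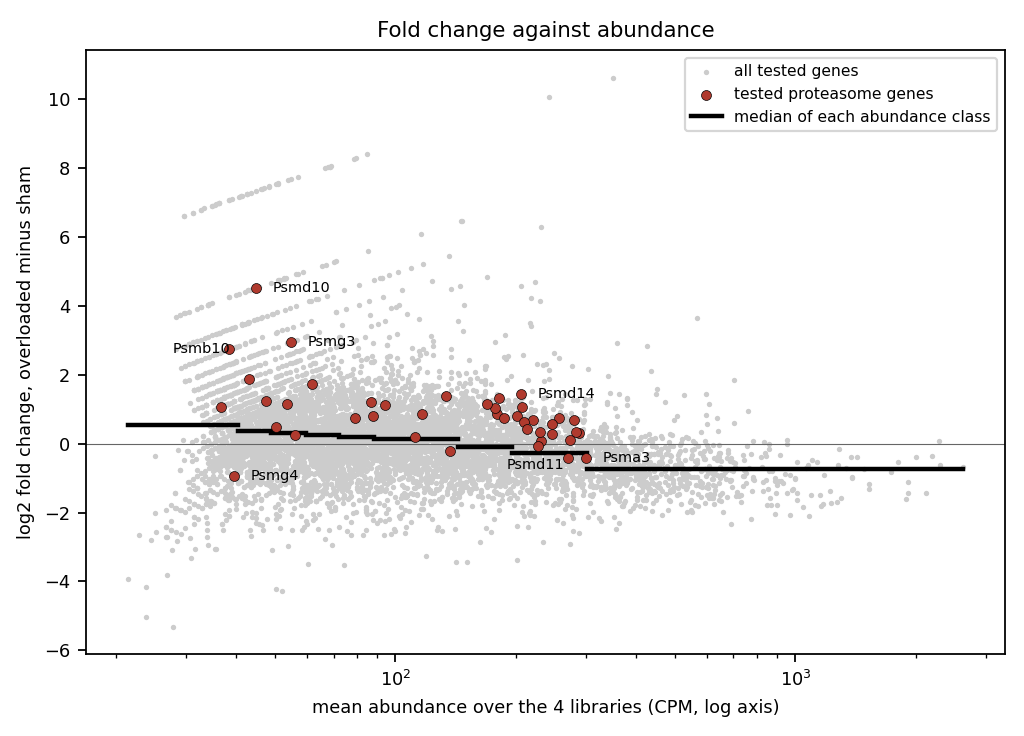
Log2 fold change (overloaded minus sham) against mean CPM over the 4 libraries on a log axis, for all 7228 tested genes in grey and 42 proteasome genes in red, with the median of all genes in each of 10 classes of abundance as a black bar. From class 8 upward the bars lie below 0 while most proteasome genes lie above it; the diagonal streaks at the upper left are genes with few or no UMIs in the sham libraries, whose fitted values depend on the prior count.

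The 20S core had 14 tested genes, of which 11 were higher and 1 lower, with a median log2 fold change of 0.95, where 25.8% of all genes were higher and 26.3% lower. Of the 11, 3 (Psmb5, Psmb8 and Psmb10) were tested through the overloaded libraries alone. Of the alpha ring, which forms the gate of the barrel, Psma1, Psma2, Psma5, Psma6 and Psma7 rose. Psma2 gave 78.4 and 104 CPM in sham and 237 and 225 in overloaded libraries, a mean of 91.3 ± 18.3 (SD, n = 2) against 231 ± 8.36 (SD, n = 2). Its log2 fold change of 1.34 (SE 0.24) passed the edgeR test (adjusted p = 0.00023), and the call held under all 13 alternatives run. Psma5 went from 95.8 and 149 CPM to 270 and 239 (log2 fold change 1.05), and Psma1 from 113 and 118 to 205 and 215 (0.86). Psma7 went from 200.2 and 159 CPM to 299 and 298 (0.73). For these 4 genes both overloaded libraries were above both sham libraries, as for 37.5% of all genes. Psma6 went from 82.7 and 63.4 CPM to 166 and 105 (log2 fold change 0.86), and without overloaded replicate 1 its change was 0.53 and no longer past the threshold (adjusted p = 0.28 by edgeR), nor was it without sham replicate 2 (0.69, adjusted p = 0.13).

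Psma3, the alpha subunit whose tail binds several client proteins, was the exception in the ring. It gave 80 and 75 UMIs in sham and 104 and 121 in overloaded libraries, which is 348 and 340 CPM against 270 and 245. Both overloaded libraries were thus lower after scaling and higher per tube. The log2 fold change was -0.42 (SE 0.17, adjusted p = 0.058 by edgeR), and it was 0.07 under offsets that remove the dependence on abundance and 0.54 per tube. The call was also lost without sham replicate 1, sham replicate 2 or overloaded replicate 2 (adjusted p = 0.22, 0.17 and 0.17 by edgeR). Psma3 has 3 near-identical gene copies in the annotation, 2 of them in the count table with 1 or 2 UMIs per library in all. Psma4, another alpha subunit, was too low to test, with 0 and 1 UMIs in sham and 11 and 9 in overloaded libraries. The normalized ratio was 10.3, with an exact binomial interval of 1.64 to 425, and 1 near-identical copy (Gm6542) held 0, 2, 0 and 0 UMIs. Psma8, the alpha subunit of the testis, was not analysed here.

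Of the beta ring subunits without an active site, Psmb1, Psmb2 and Psmb3 rose and Psmb4 did not pass the test. Psmb2 gave 56.6 and 72.5 CPM in sham and 151 and 180 in overloaded libraries, a mean of 64.5 ± 11.2 against 166 ± 20.8 (SD, n = 2 each) and a log2 fold change of 1.37 (SE 0.28, adjusted p = 0.00077 by edgeR). Psmb3 went from 82.7 and 127 CPM to 187 and 237 (1.03), with 5 near-identical copies that together held at most 1 UMI in any library. Psmb1 went from 183 and 222 CPM to 325 and 322 (0.68), a change of 0.54 without sham replicate 1 (adjusted p = 0.12 by edgeR). All 3 had both overloaded libraries above both sham libraries, as did 37.5% of all genes. Psmb4 had 226 and 267 CPM in sham and 346 and 273 in overloaded libraries, with a log2 fold change of 0.32 and a 95% confidence interval of -0.09 to 0.73. Psmb4 passed with the offsets for abundance (0.76, adjusted p = 0.0019 by edgeR), with library sizes alone (0.59, adjusted p = 0.012), in thinned libraries (0.45, adjusted p = 0.069), without overloaded replicate 2 (0.49, adjusted p = 0.051) and per tube (1.27, adjusted p = 0.00024).

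Of the constitutive catalytic subunits, Psmb5 passed the test, Psmb6 did not and Psmb7 was too low to test, and the difference between Psmb5 and Psmb6 was not tested. Psmb5, which carries the chymotrypsin-like site that proteasome inhibitors target first, gave 6 and 6 UMIs in sham and 23 and 29 in overloaded libraries, and was tested through the latter alone. In CPM this was 26.6 ± 0.75 against 59.3 ± 0.76 (SD, n = 2 each). This was a log2 fold change of 1.14 (SE 0.42, adjusted p = 0.036 by edgeR). Without sham replicate 1 or 2 the call of Psmb5 was lost, though its log2 fold change was 1.11 and 1.17. The call was also lost under the offsets for abundance (0.81, adjusted p = 0.15 by edgeR). A near-identical copy of Psmb5, Gm3375, held 2, 2, 4 and 8 UMIs. Psmb6, with the caspase-like site, gave 244 and 236 CPM in sham and 354 and 255 in overloaded libraries. Its overloaded replicate 1 stood far above the rest, and its log2 fold change of 0.33 (95% confidence interval -0.10 to 0.75) did not pass the test. It did pass without overloaded replicate 2 (0.56, adjusted p = 0.023 by edgeR), under the offsets for abundance (0.76, adjusted p = 0.0026) and when scaled by library size (0.60, adjusted p = 0.014). Psmb7, with the trypsin-like site, had 0, 2, 5 and 2 UMIs and was not tested. It overlaps Nek6 on the other strand.

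The inducible catalytic subunits were scarce in sham MuSCs and more often counted after overload. Psmb8, Psmb9 and Psmb10 together gave 5 and 7 UMIs in sham and 39 and 52 in overloaded libraries, 0.0019% and 0.0027% against 0.0101% and 0.0108% of the library. Psmb10 gave 1, 2, 16 and 25 UMIs, a normalized ratio of 7.01 with an exact binomial interval of 2.24 to 35.4. Psmb10 and Psmb8 were both tested through the overloaded libraries alone, and the call of Psmb10 was lost under the offsets for abundance (adjusted p = 0.16 by edgeR). Psmb8 gave 3, 5, 14 and 19 UMIs, or 17.9 ± 6.78 against 37.4 ± 1.47 CPM (SD, n = 2 each). Its log2 fold change of 1.06 (SE 0.49, adjusted p = 0.084 by edgeR) was past the threshold by a small margin and fell to 0.06 under the offsets. The call was lost without sham replicate 1 and without overloaded replicate 1 or 2, with adjusted p of 0.39, 0.16 and 0.26 by edgeR. Psmb9, which overlaps Tap1 on the other strand, gave 1, 0, 9 and 8 UMIs and was not tested, with a ratio of 8.72 (exact binomial interval 1.37 to 364). Psmb11, the subunit of the thymus, gave 0, 0, 1 and 0 UMIs.

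Set against its constitutive partner, which needs no scaling of the libraries, the induced share could be compared for the pairs of Psmb8 and Psmb9. Psmb8 made up 33.3% and 45.5% of the UMIs of Psmb8 and Psmb5 in sham libraries and 37.8% and 39.6% in overloaded libraries, all within each other's 95% Wilson intervals. Psmb9 made up 1.75% (interval 0.31 to 9.29) and 0 of 52 UMIs (interval up to 6.88) of the UMIs of Psmb9 and Psmb6 in sham, and 6.21% (3.30 to 11.4) and 5.97% (3.06 to 11.3) after overload. Both overloaded libraries were above both sham libraries, but the intervals of both sham libraries include both overloaded shares. Summed over the libraries of a group, the share was 0.92% (interval 0.16 to 5.01) in sham and 6.09% (3.84 to 9.54) after overload. Psmb10 outnumbered Psmb7 in both overloaded libraries, with 16 of 21 (76.2%) and 25 of 27 UMIs (92.6%), but the sham libraries held 1 and 4 UMIs of the pair and allow no comparison. The immunoproteasome genes are abundant in leukocytes, whose markers summed to 3, 6, 87 and 215 UMIs in the same libraries. The tubes had been filled by sorting for YFP, and the part of leukocytes in the counts of Psmb8, Psmb9 and Psmb10 was not tested.

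**Figure D3:**
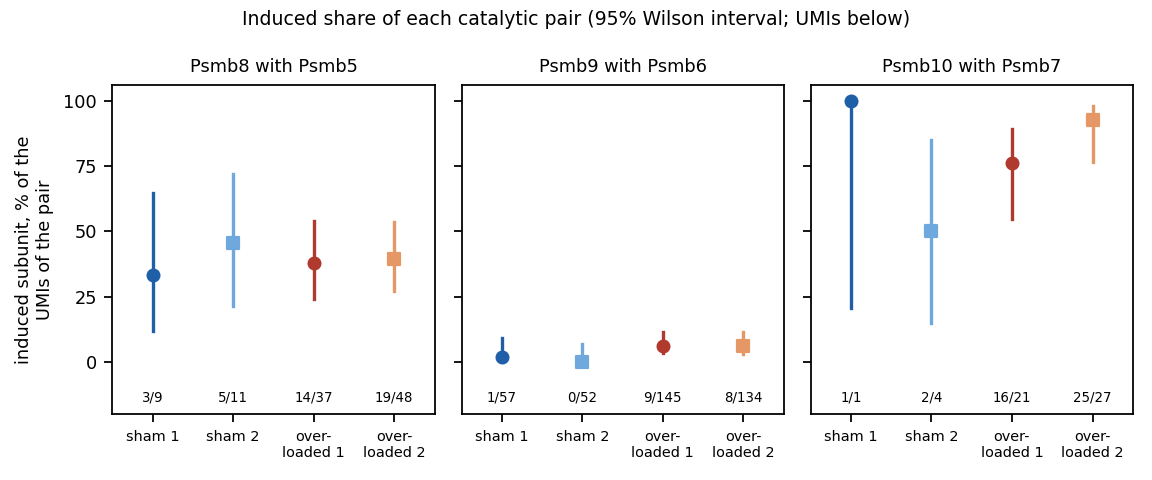
Share of the induced subunit in the UMIs of each catalytic pair (percent, with 95% Wilson interval) in each library, with the UMIs of the induced subunit and of the pair written below. The Psmb8 share lies between 33.3% and 45.5% in all 4 libraries, and the Psmb9 share is at most 1.75% in sham and about 6% in overloaded libraries.

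In the 19S regulatory particle 12 of 17 genes were higher and 1 lower (25.8% and 26.3% of all genes), with a median log2 fold change of 0.68, and of the 12 only Psmd6 was tested through the overloaded libraries alone. Of the ATPase ring, which unfolds the substrate and opens the gate, all but Psmc6 passed the test. Psmc1 gave 82.7 and 104 CPM in sham and 221 and 196 in overloaded libraries, a mean of 93.4 ± 15.2 against 209 ± 17.4 (SD, n = 2 each) and a log2 fold change of 1.15 (SE 0.24, adjusted p = 0.00093 by edgeR). Psmc4 went from 47.9 and 40.8 CPM to 93.6 and 109 (1.19), and Psmc2 from 165 and 104 to 231 and 239 (0.80). Psmc3 went from 169.8 and 145 CPM to 263 and 245 (0.68), and Psmc5 from 65.3 and 45.3 to 114 and 83.0 (0.81). In each of these 5 genes the lower overloaded library was above the higher sham library, as it was for 37.5% of all genes. Without sham replicate 2, the calls of Psmc2, Psmc3 and Psmc5 were lost (adjusted p = 0.16, 0.103 and 0.29 by edgeR), and Psmc5 was also lost without overloaded replicate 1 (adjusted p = 0.26). Psmc6 gave 279 and 236 CPM in sham and 270.4 and 277 in overloaded libraries, and the groups overlapped. Its log2 fold change was 0.09, with a 95% confidence interval of -0.29 to 0.47. Under the offsets for abundance Psmc6 passed (0.52, adjusted p = 0.027 by edgeR) and Psmc5 did not (0.71, adjusted p = 0.12), and with library sizes alone Psmc6 passed too (0.37, adjusted p = 0.099).

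The remaining base subunits, Psmd1 and Psmd2, which form the scaffold of the base, and Psmd4, a ubiquitin receptor, all passed the test. Psmd1 went from 169.8 and 204 CPM to 299 and 257 (log2 fold change 0.57), and Psmd2 from 165 and 140 to 211 and 259 (0.63). Psmd4 went from 192 and 149 CPM to 239 and 223 (0.43, adjusted p = 0.098 by edgeR), and was the called gene nearest to the threshold. It was lost without sham replicate 2 or either overloaded library (adjusted p = 0.48, 0.19 and 0.12 by edgeR). Psmd1 was lost without sham replicate 1 (0.44, adjusted p = 0.21), and Psmd2 without sham replicate 2 (adjusted p = 0.15) or overloaded replicate 2 (adjusted p = 0.17).

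The lid was mixed, with 4 genes higher, 1 lower and 3 not past the threshold, where 25.8% of all genes were higher and 26.3% lower. Psmd14, the metalloprotease that cuts the ubiquitin chain off the substrate, had the largest rise among the 17 Psm genes of the base and lid. It gave 26 and 18 UMIs in sham and 96 and 139 in overloaded libraries, or 113 and 81.5 CPM against 249.6 and 281. The means were 97.4 ± 22.4 and 266 ± 22.5 CPM (SD, n = 2 each), a 2.72-fold difference with a log2 fold change of 1.45 (SE 0.23, 95% confidence interval 0.96 to 1.93, adjusted p = 1e-04 by edgeR). Psmd3, a scaffold of the lid, went from 139 and 118 CPM to 205 and 223 (0.74), and Psmd6 from 74.0 and 27.2 to 109 and 111 (1.11). Psmd13 went from 39.2 and 63.4 CPM to 83.2 and 89.1 (0.75). The sham libraries of Psmd6, which was tested through the overloaded libraries alone, differed widely, and its change was 0.57 without sham replicate 2 (adjusted p = 0.25 by edgeR) and 2.01 without sham replicate 1 (adjusted p = 0.00087). The call of Psmd13 was lost without sham replicate 1 and without overloaded replicate 1 or 2, with adjusted p of 0.45, 0.11 and 0.23 by edgeR.

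Psmd11, a lid subunit known to set the amount of assembled 26S complex in embryonic stem cells, was lower. It gave 77 and 63 UMIs in sham and 94 and 110.0 in overloaded libraries, or 335 and 285 CPM against 244 and 223. Its log2 fold change was -0.42 (SE 0.18, adjusted p = 0.073 by edgeR), but 0.02 under the offsets for abundance and 0.54 per tube. Without sham replicate 1 or overloaded replicate 2 the call was lost (adjusted p = 0.39 and 0.20 by edgeR). Psmd12 (152 and 136 CPM against 127 and 119, log2 fold change -0.23) was below sham in both overloaded libraries but did not pass the test, and its change was 0.05 with library sizes alone and 0.73 per tube. Psmd7 gave 196 and 240 CPM in sham and 242 and 219 in overloaded libraries (0.08, 95% confidence interval -0.34 to 0.49). Psmd8 gave 226 and 199 CPM against 244 and 269 (0.27, interval -0.13 to 0.67), and passed with those offsets (0.63, adjusted p = 0.012 by edgeR).

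**Figure D4:**
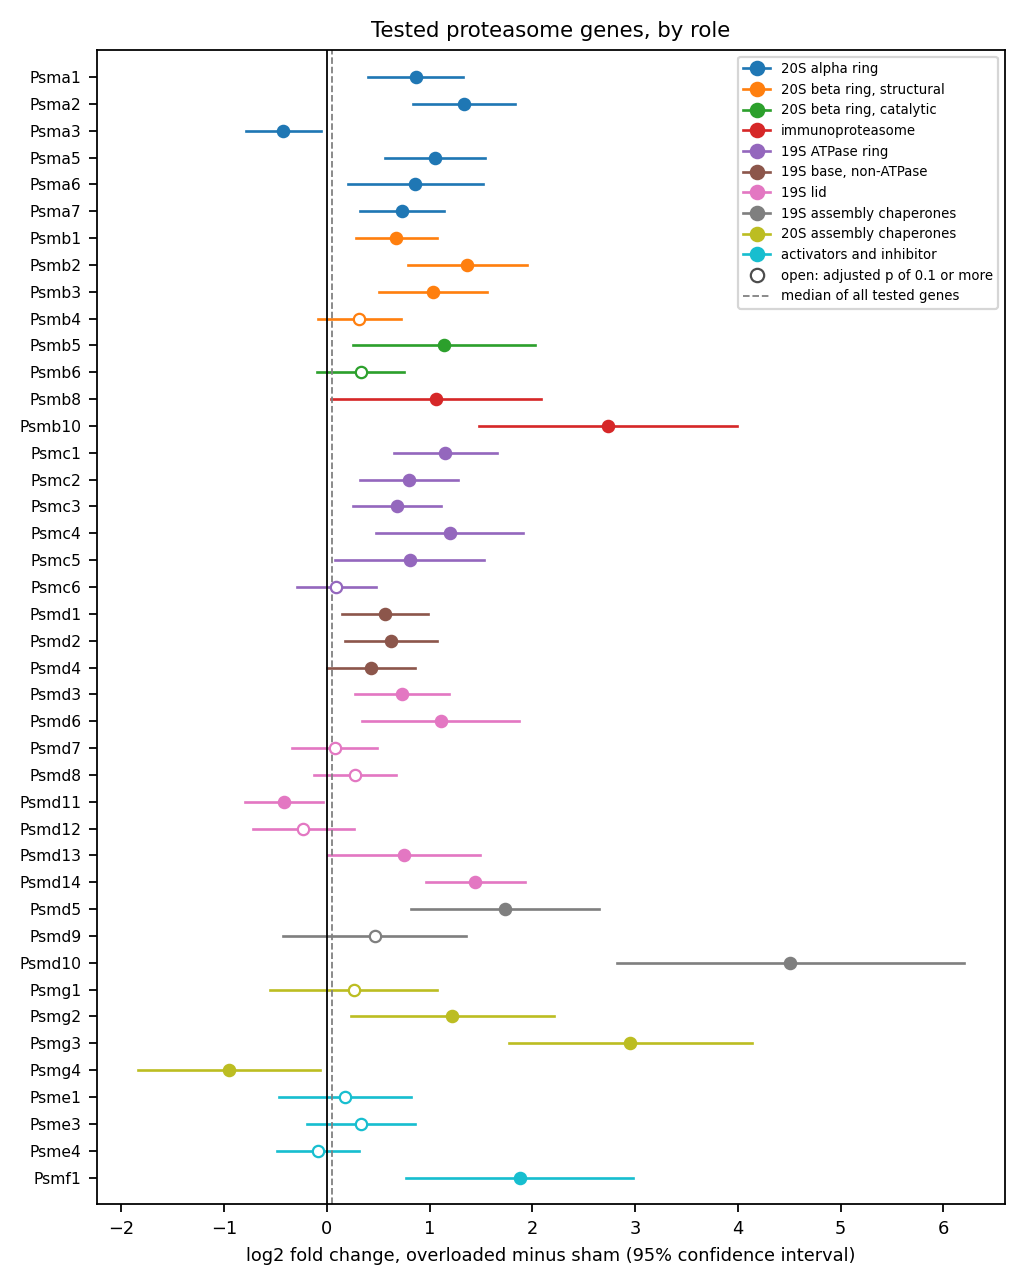
Log2 fold change (overloaded minus sham, horizontal axis) with 95% confidence interval for the 42 tested genes, coloured by role; filled points passed an adjusted p of 0.1, open points did not, and the dashed line is the median of all genes, 0.05. The 3 filled points left of 0 are Psma3, Psmd11 and Psmg4, and the values of Psmd10 and Psmb10, with at most 3 sham UMIs, depend on the prior count.

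The chaperones that build the complex held some of the highest ratios, at low counts. Psmd10 (gankyrin), which binds an ATPase during assembly of the base, gave 1 and 0 UMIs in sham and 17 and 35 in overloaded libraries. The normalized ratio was 26.7, with an exact binomial interval of 4.58 to 1073. Its fitted log2 fold change of 4.51 became 7.44 without sham replicate 1, 3.66 without sham replicate 2 and 2.86 under the offsets for abundance. The gene entered the test through the overloaded libraries alone. Psmd5, another base chaperone that entered the test in the same way, gave 5, 5, 24 and 42 UMIs, or 22.2 ± 0.63 against 73.7 ± 16.0 CPM (SD, n = 2 each). This was a log2 fold change of 1.73 (SE 0.44, adjusted p = 0.0040 by edgeR). Psmd9 gave 39.2 and 31.7 CPM against 59.8 and 40.5 (0.47, 95% confidence interval -0.43 to 1.36) and did not pass.

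Among the chaperones of the 20S core, which pair up to assemble the alpha ring, Psmg3 and Psmg2 were called higher, both tested through the overloaded libraries alone. Psmg3 gave 3, 1, 23 and 40.0 UMIs, or 8.79 ± 6.03 against 70.4 ± 14.99 CPM (SD, n = 2 each). This was a log2 fold change of 2.95 (SE 0.56, adjusted p = 0.00047 by edgeR). It was 3.88 without sham replicate 1, 2.42 without sham replicate 2 and 2.01 under the offsets for abundance (adjusted p = 0.012 by edgeR). Psmg4, with which the Psmg3 protein pairs, was called lower and was tested through the sham libraries alone. It gave 9, 13, 11 and 11 UMIs, or 39.2 and 58.9 CPM in sham against 28.6 and 22.3, a log2 fold change of -0.95 (SE 0.42, adjusted p = 0.075 by edgeR). Per tube the change of Psmg4 was 0.00, and the call was lost with library sizes alone (adjusted p = 0.20 by edgeR) and without any 1 library other than sham replicate 1. Under the offsets for abundance the change of Psmg4 was -1.48 (adjusted p = 0.0099 by edgeR). Psmg2 gave 3, 7, 19 and 27 UMIs (1.22, adjusted p = 0.043 by edgeR) and was lost without sham replicate 1 (0.72, adjusted p = 0.34) or overloaded replicate 2 (1.14, adjusted p = 0.14) and under the offsets for abundance (0.62, adjusted p = 0.34), while without sham replicate 2 its change was 1.97. Psmg1, the partner of the Psmg2 protein, gave 43.5 and 45.3 CPM in sham and 46.8 and 58.7 in overloaded libraries (0.26, 95% confidence interval -0.55 to 1.07).

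None of the 3 activator genes tested, which encode caps that open the core without ATP, passed the test. Psme1 (PA28 alpha) gave 100.1 and 95.1 CPM in sham and 78.0 and 138 in overloaded libraries, a log2 fold change of 0.18 (95% confidence interval -0.47 to 0.82). Psme3 (PA28 gamma, the nuclear activator) gave 152 and 236 CPM against 185 and 296 (0.34, interval -0.19 to 0.86). The overloaded libraries of each gene lay further apart than the group means did, and without overloaded replicate 2 the changes were -0.32 and -0.07. Psme3 passed with the offsets for abundance (0.64, adjusted p = 0.039 by edgeR), with library sizes alone (0.62, adjusted p = 0.040), without overloaded replicate 1 (0.63, adjusted p = 0.015), without sham replicate 2 (0.68, adjusted p = 0.056) and per tube (1.32, adjusted p = 0.0027), while without sham replicate 1 its change was 0.0496. Psme4 (PA200) gave 231 and 226 CPM against 205 and 225 (-0.08, interval -0.48 to 0.31), with 0.20 under library sizes alone, 0.24 under the offsets and 0.88 per tube. Psme2 (PA28 beta), whose protein forms a ring with that of Psme1, gave 1, 3, 14 and 12 UMIs and was not tested. In UMIs per tube its overloaded libraries were both above both sham libraries, as for 72.7% of all tested genes.

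Psmf1 (PI31), which binds the core and inhibits it in vitro and was tested through the overloaded libraries alone, went from 2 and 4 UMIs to 16 and 28, or from 13.4 ± 6.66 to 49.2 ± 10.7 CPM (SD, n = 2 each). Its log2 fold change was 1.88 (SE 0.52, adjusted p = 0.0079 by edgeR) and 0.89 under the offsets for abundance (adjusted p = 0.24), and without sham replicate 2 it was 2.48. Psmc3ip gave 0, 2, 6 and 6 UMIs, a ratio of 3.08 with an exact binomial interval of 0.69 to 28.3.

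Other genes of the pathway were described by lists. Of 4 proteasome genes with other names, Pomp, Uchl5 and Sem1 were called higher, where 25.8% of all genes were, and Adrm1 did not pass the test. Uchl5 and Adrm1 were tested through the overloaded libraries alone. Pomp, the maturation factor of the core, went from 33 and 14 UMIs to 91 and 131 (log2 fold change 1.27, adjusted p = 0.0010 by edgeR). Uchl5, a deubiquitinase of the cap, went from 2 and 6 to 31 and 27 (1.88), and Sem1, the smallest lid subunit, from 47 and 37 to 109 and 117 (0.47, adjusted p = 0.067). Adrm1, the ubiquitin receptor that anchors Uchl5, had 5, 4, 14 and 19 UMIs (0.90, adjusted p = 0.14).

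Genes of ubiquitin and of delivery to the proteasome had 2 of 18 higher and 4 lower, against 25.8% and 26.3% of all genes, with 12 not past the threshold and a median log2 fold change of -0.01, against 0.05 over all genes. Ubb, which encodes ubiquitin, fell in both overloaded libraries even in UMIs, from 84 and 84 to 56 and 63 (-1.46, adjusted p = 1.2e-05 by edgeR). Usp14, the deubiquitinase that docks on the cap, rose from 16 and 11 to 56 and 69 UMIs (1.24, adjusted p = 0.0022 by edgeR). Zfand5, which activates the 26S complex, gave 168 and 141 UMIs in sham and 150.0 and 201 in overloaded libraries (-0.78, adjusted p = 0.00093 by edgeR). It lies in the highest class of abundance, in which 70.8% of all genes were lower.

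Of 10 transcription factors and regulators tied to proteasome genes, 1 was higher, 5 were lower and 4 did not pass, where 25.8% of all genes were higher and 26.3% lower. Stat3 and Nfe2l2 lie in the highest class of abundance, with 70.8% lower. Nfe2l1, the factor of the recovery response to proteasome inhibition, gave 137.8 ± 10.2 CPM in sham and 137.6 ± 14.4 in overloaded libraries (SD, n = 2 each). This was a log2 fold change of 0.01 (SE 0.23). Nfe2l2, the oxidative stress factor, went from 92 and 84 UMIs to 95 and 150.0 (-0.49, adjusted p = 0.030 by edgeR), and its repressor Keap1 from 10 and 2 to 24 and 34 (1.30). Keap1, the factor called higher, was tested through the overloaded libraries alone. Stat3 fell from 272 and 289 to 184 and 237 UMIs (-1.38). Nfyb (-0.67), Nfya (-0.95) and Foxo3 (-0.50) were the other genes called lower, of which Nfya overlapped between the groups. Akirin2, which guides nuclear import of the proteasome, was not past the threshold (0.43, adjusted p = 0.16 by edgeR).

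Of 4 ubiquitin ligases known from muscle, 3 were called higher and 1 lower (25.8% and 26.3% of all genes). The 3 were tested through the overloaded libraries alone, so that their calls are no support for a rise. Trim63 (MuRF1) had 1 and 0 UMIs in sham and 14 and 29 in overloaded libraries, Fbxo32 (atrogin-1) 11 and 2 against 36 and 53 (log2 fold change 1.80), and Trim32 6 and 5 against 16 and 29 (1.05). Fbxo30 (MUSA1) had 89 and 60 against 60 and 94 UMIs (-0.92, adjusted p = 0.0017 by edgeR). The sham libraries of Fbxo32 differed widely from each other, and both were below both overloaded libraries.

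Genes of MHC class I presentation and interferon signalling, which are often induced with the immunoproteasome, had a median log2 fold change of -0.77 over 10 tested, with 1 higher, 6 lower and 3 not past, where 26.3% of all genes were lower. H2-K1, H2-D1 and B2m lie in the highest class of abundance, in which the median of all genes was -0.74 and 70.8% were lower. H2-K1, a class I heavy chain, gave 147 and 152 UMIs in sham and 78 and 129 in overloaded libraries (-1.50), and H2-D1 gave 115 and 125 against 83 and 88 (-1.44). B2m, the light chain, gave 159, 145, 155 and 196 UMIs (-0.75), and Irf1, which induces immunoproteasome genes, 75, 80.0, 47 and 73 (-1.34). Gbp2 (-1.45) and Irf9 (-0.79) were also lower. Ifit1, an interferon-induced gene, was the only one called higher, with 0, 3, 12 and 46 UMIs, and was tested through the overloaded libraries alone. Tap1, the peptide transporter beside Psmb9, gave 7, 5, 8 and 8 UMIs and was not tested.

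Another scaling moved all genes together. With library sizes alone the median of all genes was 0.33 and that of the proteasome genes 1.02, with 33 called higher (37.3% of all genes). In UMIs per tube these were 1.01 and 1.71, with 41 of 42 called higher (62.0% of all genes). Under offsets for abundance they were 0.03 and 0.84, with 26 called higher (21.9% of all genes) and 1 lower. With DESeq2, 14 of 45 were called higher (9.34% of 10348 genes) and 0 lower, with medians of 0.10 and 0.81. TMM, library sizes alone and UMIs per tube differ by a shift common to all genes, so that the distance between both medians, 0.69, is the same in these by construction. Under the offsets, which act by abundance, it was 0.81.

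**Figure D5:**
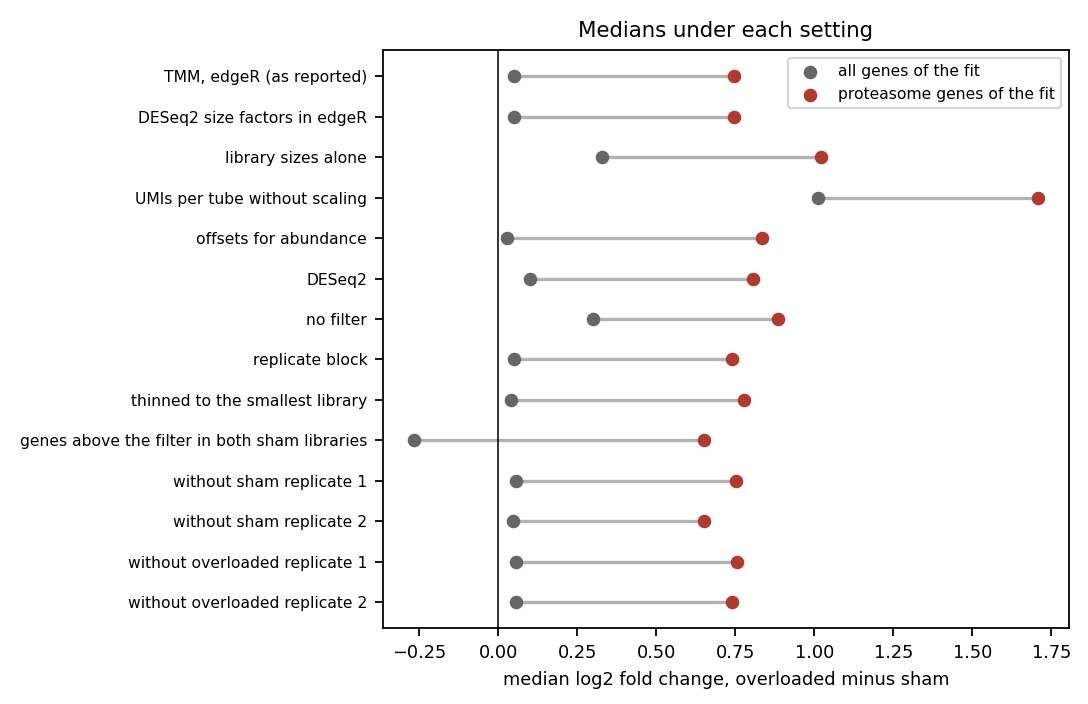
Median log2 fold change (overloaded minus sham) of all genes in the fit (grey) and of the proteasome genes in it (red) under each setting. The red point lies right of the grey point in each setting shown, from medians of 0.05 and 0.75 as reported to 1.01 and 1.71 in UMIs per tube.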

How the data were processed

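MuSCs sorted by YFP were profiled in 4 libraries. The authors extracted barcodes with UMI-tools (version 1.0.0), aligned reads to GRCm38 with HISAT2 (version 2.1.0), assigned them with featureCounts (version 1.6.4) and deposited the unnormalized count of UMIs per gene. Annotation release and strand setting are not given in the sources used here. By the GENCODE annotation used here, 23 of the 48 genes overlap another gene, 19 of them on the other strand, where reads may not be told apart. Copies were sought with BLAST (version 2.17.0), as at least 95% identity over 100 of the last 400 bases, and found for 11 genes.

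Counts were filtered by filterByExpr (minimum count 10, minimum total 15), scaled by TMM (factors 0.909, 0.908, 1.08 and 1.12) and tested in edgeR (version 4.0.16, R version 4.3.3, prior count 0.125) with Benjamini-Hochberg adjustment and a threshold of 0.1. DESeq2 (version 1.42.0) was an alternative, where the study used version 1.22.2. The others were DESeq2 size factors, library sizes alone, UMIs per tube, cyclic loess offsets (limma version 3.58.1), no filter, an adjusted p of 0.05, a replicate block, thinning and each library left out. A restriction to genes above the filter in both sham libraries was chosen after seeing the data. On simulated counts for this comparison (6872 genes tested), 58.3% of 2-fold and 97.8% of 4-fold changes were found, 0 in the wrong direction, and 10 of 156 calls were of unchanged genes. The simulation changed 188 of the tested genes without regard to abundance. In the real counts 1868 genes were called higher and 1898 lower, so these rates may not hold there. Libraries of a group differed by more than sampling noise (chi-square per degree of freedom 1.31 and 1.50).

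The members, gene lists and motifs were chosen with earlier results of these data known. The rule was to give in full the catalytic pairs, the 6 largest rises and falls past the threshold, activators, inhibitor and genes whose call depends on the scaling, and to name all called genes of other lists of up to 12 tested genes and the 4 largest changes of longer ones. Of the genes this rule names, 1 is not reported here. Counting steps used Python (version 3.11.15) with scipy (version 1.17.1).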

Additional observations from a re-analysis of the deposited data

How the results depend on the processing

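The count of proteasome genes called higher, 28, was within 1.5 times that number under every setting run except DESeq2, with 14, all of them among the 28. The genes called higher by edgeR and not by DESeq2 were Psma6, Psmb5, Psmb8, Psmc3, Psmc4, Psmc5, Psmd1, Psmd2, Psmd3, Psmd4, Psmd6, Psmd13, Psmf1 and Psmg2. No gene called higher changed sign under any setting. The count called lower, 3, was 0 with library sizes alone, per tube, with DESeq2, with no filter, at an adjusted p of 0.05 and in thinned libraries, and 1 under the offsets. It was also below 3 with any 1 library left out. Over all genes, per tube gave 4481 higher and 331 lower, and DESeq2 gave 967 and 1215. The share of calls that were higher was 49.6% as reported, 66.6% with library sizes alone, 93.1% per tube, 57.6% with no filter and 27.2% among genes above the filter in both sham libraries.

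The median of the proteasome genes, of the 20S and of the 19S genes was 1.02, 1.23 and 0.96 with library sizes alone and 1.71, 1.91 and 1.64 per tube. It was 0.84 for all and 0.86 for the 19S under the offsets, 0.81 for all with DESeq2, 0.89 for all and 1.12 for the 20S with no filter, and 0.65 among genes above the filter in both sham libraries. Leaving out 1 library gave medians from 0.65 to 0.76 (all proteasome genes), 0.80 to 1.03 (20S) and 0.57 to 0.75 (19S), against 0.05 to 0.06 over all tested genes. A lone library was then taken to vary like the other group.

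The genes that changed sign were among those not called higher. Psmd12 was 0.0496 with library sizes alone and 0.73 per tube, and Psme4 was 0.20, 0.88 and, under the offsets, 0.24. Psma3 was 0.54 per tube and 0.0684 under the offsets, and Psmd11 0.54 and 0.0185. Psmg1 was -0.28 in thinned libraries. With 1 library left out, Psmd7 ranged from -0.0652 (without sham replicate 1) to 0.23, Psmc6 from -0.0232 (without sham replicate 2) to 0.22, and without overloaded replicate 2 Psme1 and Psme3 were at the lower ends of -0.32 to 0.51 and -0.0663 to 0.68. The cause was not tested.

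By their labels the libraries share only a number between groups. The study names the sham muscle as contralateral in other experiments, but whether these sham and overloaded libraries came from the same mice is not stated. Same-numbered libraries did not deviate together (correlation -0.03 over all genes and 0.05 over the proteasome genes). With the number as a replicate block, 27 genes were called higher and 2 lower, Psmb8 (adjusted p = 0.15) and Psmg4 (adjusted p = 0.12) being lost by edgeR. The filter stood at 11.8 and 14.7 UMIs in the overloaded libraries, above the counts of scarce members such as Psmb7, Psmb9 and Psma4 there, which were therefore not tested.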

Other observations

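The other marker lists moved with overload as follows, and their part in the proteasome results was not tested. Of the 9 MuSC markers, 1 was higher, 5 lower and 3 not past the threshold of the edgeR test, where 25.8% of all genes were higher and 26.3% lower. Of the 5, Pax7, Vcam1, Chodl and Heyl lie in the highest of 10 classes of abundance, in which 70.8% of all genes were lower. The other, Calcr, had the largest fall of the 9, from 37 and 57 to 15 and 15 UMIs (log2 fold change -2.60, adjusted p = 6.8e-06 by edgeR). Endothelial markers (7 genes) summed to 19 and 17 UMIs in sham and 101 and 96 in overloaded libraries, most of the latter from Fabp4 (1, 1, 58 and 54), while Egfl7 was at 0 in both sham libraries. Of the 2 endothelial markers tested, 1 was higher and 1 (Tek) lower. Fibro-adipogenic markers (8 genes) summed to 530.0, 495, 462 and 615 UMIs, with Gsn the most abundant (304, 269, 214 and 312) and Pdgfra at 0, 0, 2 and 0, and of 4 tested 1 was higher and 3 lower. The 3, Dcn, Dpt and Gsn, lie in the highest class of abundance, in which 70.8% of all genes were lower. Mural markers (6 genes) summed to 173, 152, 459 and 664 UMIs, mostly Acta2 (115, 109, 356 and 493), with Myh11 at 0, 0, 0 and 3, and of 3 tested 2 were higher and 1 lower. Of the leukocyte markers, Lyz2 and Cd74 were tested, both through the overloaded libraries alone, which fixed their direction. Fabp4, Ly6a and Rgs5, among the markers called higher, were tested in the same way, and Tek through the sham libraries alone.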
